A study of Mus musculus with 6 samples.

Results

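The Hsp70 family of chaperones was described here through Hspa1a, Hspa1b, Hspa4, Hspa5, Hspa8 and Hspa9, taken by gene symbol from the platform annotation of the Affymetrix MGU74Av2 array. These 6 genes had 10 of the 12488 probe sets on the array, 5 of them for Hspa4 and 1 for each other gene. Probe sets annotated to several genes were not counted. The tissue was the tibialis anterior, the front muscle of the shin, of mice killed 48 h after exercise by a non-invasive model. The eccentric pool came from muscles given 50 eccentric contractions, which lengthen the muscle while it pulls. The isometric pool came from muscles given 50 isometric contractions, in which its length stays fixed. The control pool came from contralateral legs, which contracted only enough for isometric torque to be read. The labels give no strain, sex or age, and do not state whether the control legs belonged to eccentrically or isometrically exercised mice. Each pool held RNA of 4 animals and was divided over 2 arrays, A and B, so each group is 1 biological sample. Values are mean signal ± SD over those arrays, an error that covers labelling and hybridisation and not the spread between mice, and no p-value for the kind of contraction can be had.

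Hsp70 proteins bind exposed hydrophobic stretches of unfolded proteins and release them in a cycle driven by ATP, with J-domain proteins starting the cycle and nucleotide exchange factors resetting it. Hspa1a and Hspa1b encode the stress-inducible cytosolic form, which heat shock factor switches on when proteins unfold, and which is known to rise in muscle after damaging exercise. Hspa8 is the constitutive cytosolic form, Hspa9 the mitochondrial form that pulls proteins through the inner membrane, and Hspa5, also called BiP, the form of the endoplasmic reticulum. Hspa4 is a larger relative of the Hsp110 group that acts as a nucleotide exchange factor. Hspa4, Hspa5, Hspa8 and Hspa9 are treated here as the constitutive genes, although Hspa5 is itself induced by stress of the endoplasmic reticulum.

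The upstream sequences of the inducible pair and of Hspa5 are shown as a description of their letters, and their part in the signals was not tested. Of the 6 genes, 4 had an entry in the RefSeq promoter table of the GRCm38.p6 build, and for 3 of them the 250 bases before the start are given 5′ to 3′ on the gene's own strand. The entry of Hspa4 held neither of the elements marked here and is not shown. For Hspa1a (chr17:34972157-34972406, minus strand) and Hspa1b (chr17:34959239-34959488, minus strand), capitals mark GAANNTTC, the core of the element bound by heat shock factor. For Hspa5 (chr2:34771840-34772089, plus strand), capitals mark the endoplasmic reticulum stress element, CCAAT and CCACG with 9 bases of any kind between them.
Hspa1a: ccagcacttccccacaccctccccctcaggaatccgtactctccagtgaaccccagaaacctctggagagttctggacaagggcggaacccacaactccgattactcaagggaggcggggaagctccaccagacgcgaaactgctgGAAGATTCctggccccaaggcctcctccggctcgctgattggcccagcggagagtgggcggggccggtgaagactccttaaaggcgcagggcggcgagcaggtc
Hspa1b: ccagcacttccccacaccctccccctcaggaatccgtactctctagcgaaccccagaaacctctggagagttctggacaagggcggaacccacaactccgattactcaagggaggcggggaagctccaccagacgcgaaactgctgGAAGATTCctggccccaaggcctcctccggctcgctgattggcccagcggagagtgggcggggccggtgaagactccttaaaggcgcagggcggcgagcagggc
Hspa5: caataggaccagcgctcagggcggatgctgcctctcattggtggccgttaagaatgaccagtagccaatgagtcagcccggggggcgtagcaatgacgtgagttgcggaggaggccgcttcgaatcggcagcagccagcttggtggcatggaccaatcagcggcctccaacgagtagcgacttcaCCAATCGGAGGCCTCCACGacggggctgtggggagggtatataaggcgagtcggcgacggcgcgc

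The upstream stretches of Hspa1a and Hspa1b were equal at 247 of 250 bases, or 98.8%. Counted from 1 at the 5′ end of the stretch, with the Hspa1a base first, the differences were C44T, T47C and T249G. Both stretches held 1 match to GAANNTTC, 104 to 97 bases before the start. The core, searched as GAANNTTC or TTCNNGAA on both strands, was present in 12.8% of the 32851 promoters of the table. The stress element of Hspa5 lay 65 to 47 bases before the start, began with a CCAAT box, and was present in 0.113% of promoters on either strand. These matches describe letters in the windows and do not show binding of a factor.

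Signals were linear intensities deposited by the authors, on arrays with medians of 186.9 to 197.3 and with 59.2% to 61.2% of probe sets above the low-signal floor of 120.8. That floor, the 40th percentile of all values, replaced lower values before log2 was taken. Measured probe sets of a comparison are those with both arrays of 1 pool or of both pools over the floor. A probe set was called higher or lower when mean log2 signals differed by at least 1, which is 2-fold, and the sign held in all 4 pairings of arrays between pools. Among family members 9 of 10 probe sets lay above the floor on all 6 arrays, and the exception was the dimmest of Hspa4. All 7 skeletal muscle markers, Ckm, Acta1 and Myh4 among them, lay above the floor on every array. Summed signals of 9 macrophage and monocyte markers were 16179 to 16291 on the eccentric arrays, 9055 to 9307 on the isometric arrays and 4889 to 4961 on the control arrays. All 9 lay above the floor on the eccentric and isometric arrays, and 8 did so on both control arrays. The exception was Adgre1, at 65.0 on control A. In a whole-muscle RNA, more cells of a type and more RNA per cell cannot be told apart. As a measure of RNA integrity, the log2 ratio of 3′ over 5′ probe sets for beta-actin was 0.44 in the eccentric pool, 0.21 in the isometric pool and 0.04 in the control pool. For Gapdh it was 0.12, 0.10 and -0.06 in these pools, with -0.07 and 0.27 on the isometric arrays, which overlapped the other pools.

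Hspa1a and Hspa1b were far brighter in the eccentric than in the isometric pool. Hspa5 was brighter in both exercised pools than in the control pool, while the other constitutive genes, by their brightest probe sets, moved little. Dimmer probe sets of Hspa4 differed by up to 0.75 on the log2 scale in the eccentric against the control pool, where Hspa1b had 0.77. Hspa1a had signals of 2770.4 and 2600.0 on the eccentric arrays, 389.5 and 438.4 on the isometric arrays, and 601.0 and 634.6 on the control arrays. Every eccentric array was above every control array and every isometric array below every control array, so no pools overlapped. Means were 2685 ± 121 in the eccentric pool, 414 ± 34.6 in the isometric pool and 618 ± 23.8 in the control pool (SD, n = 2 arrays of 1 pool each).

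Hspa1b, whose coding sequence is nearly that of Hspa1a, had 1211.7 and 1178.7 on the eccentric arrays, 201.8 and 194.3 on the isometric arrays, and 687.3 and 711.2 on the control arrays. The order of the pools was that of Hspa1a, again without overlap. Its means were 1195 ± 23.3 in the eccentric pool, 198 ± 5.3 in the isometric pool and 699 ± 16.9 in the control pool. Neither gene has a second probe set annotated to it alone, and the probe sets may share signal, so the pair does not count as 2 independent measurements.

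**Figure D1:**
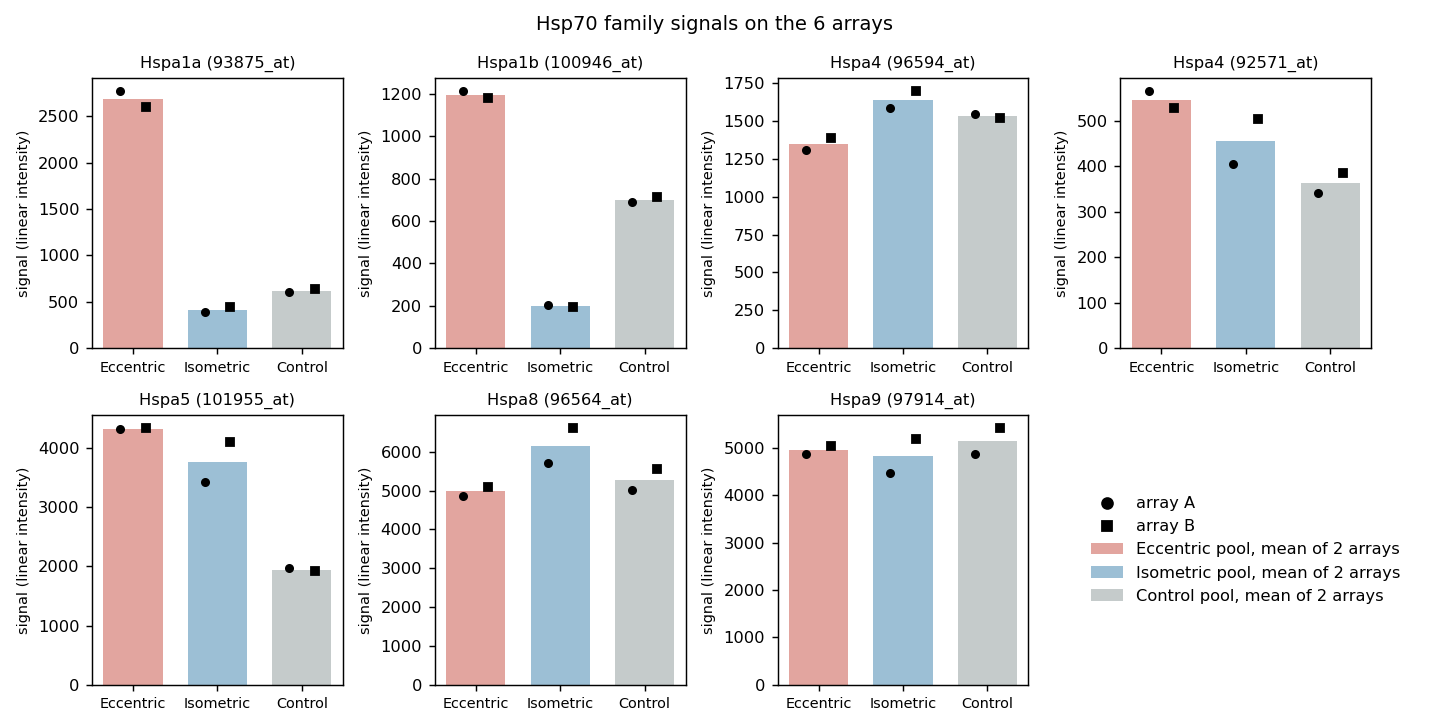
Linear signal of the brightest probe set of each gene, and of a second probe set of Hspa4, on the vertical axis of each panel, for the eccentric, isometric and control pools. Bars are means of 2 arrays and points are single arrays. Hspa1a and Hspa1b stand highest in the eccentric and lowest in the isometric pool, Hspa5 stands lowest in the control pool, at 1945, and Hspa9 overlaps between all pools.

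What lengthening contractions left behind after 48 h is asked by setting the eccentric pool against the control pool. Of 10 measured family probe sets 2 were called, both higher, where 5.97% of the 7486 probe sets measured were called, 4.86% higher and 1.11% lower. With no floor on low signals the balance over all probe sets turned, to 713 higher and 830 lower. The 2 family calls were Hspa1a, with a log2 difference of 2.12 (2.03 to 2.20 over the 4 array pairings), and Hspa5, with 1.15 (1.13 to 1.17). Hspa1b, at 0.77 (0.73 to 0.82), lay outside the spread between arrays but below the 2-fold limit. In size, 19 measured probe sets differed more than Hspa1a, 278 more than Hspa5 and 831 more than Hspa1b. The macrophage markers were higher too, 9 of 9 by the same rule with a median of 1.68, and the part of those cells in the values of Hspa1a and Hspa5 was not tested.

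The isometric pool against the control pool puts that question to contractions at fixed length. Only Hspa1b was called among the 10 family probe sets, lower by the rule, where 1.32% of 7336 measured probe sets were called, 0.913% higher and 0.409% lower. With no floor this balance turned too, to 313 higher and 704 lower. The log2 difference of Hspa1b was -1.82 (-1.87 to -1.77), and 4 probe sets differed more. This call was lost in limma on the 6 arrays, with an adjusted p of 0.0737, and of 0.205 with the array letter as a block. Hspa1a was also lower on every array pairing, at -0.58 (-0.70 to -0.46), without reaching the limit. Hspa5 missed the limit narrowly from the other side, at 0.95 (0.80 to 1.09), and 121 probe sets differed more. Of the macrophage markers 3 of 9 were called higher in the isometric than in the control pool, where Hspa5 was higher too, whereas Hspa1a and Hspa1b were lower, and the part of those cells in either result was not tested.

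What lengthening adds to activity is asked by the eccentric against the isometric pool. Of 9 measured family probe sets 2 were called, both higher, where 2.25% of 7372 were called, 1.64% higher and 0.61% lower. Hspa1a had a log2 difference of 2.70 (2.57 to 2.83), a 6.49-fold ratio, while that of Hspa1b was 2.59 (2.55 to 2.64), a 6.04-fold ratio. Only 1 measured probe set differed more than Hspa1a and 3 more than Hspa1b. Hspa5 was nearly level between the exercised pools, at 0.21 (0.07 to 0.34). Macrophage markers were called higher in 5 of 9 cases, with a median of 1.001. Of 3 measured neutrophil markers 2 were called higher, S100a8 and S100a9, and the median of the 3 was 1.24. The remaining measured marker, Elane, was lower, with 205.5 and 206.2 on the eccentric arrays against 283.3 and 338.4 on the isometric arrays. Mpo and Ly6g, also on the neutrophil list, were not measured in this comparison. The part of macrophages and neutrophils in the values of Hspa1a and Hspa1b was not tested.

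Hspa1a, Hspa1b and the brightest probe set of Hspa4 lay on opposite sides of the control pool in the eccentric and isometric pools, on every array. That is 3 of 10 family probe sets, beside 3.42% of the 7636 probe sets measured in either comparison. The eccentric pool was the higher one for Hspa1a and Hspa1b and the lower one for Hspa4.

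**Figure D2:**
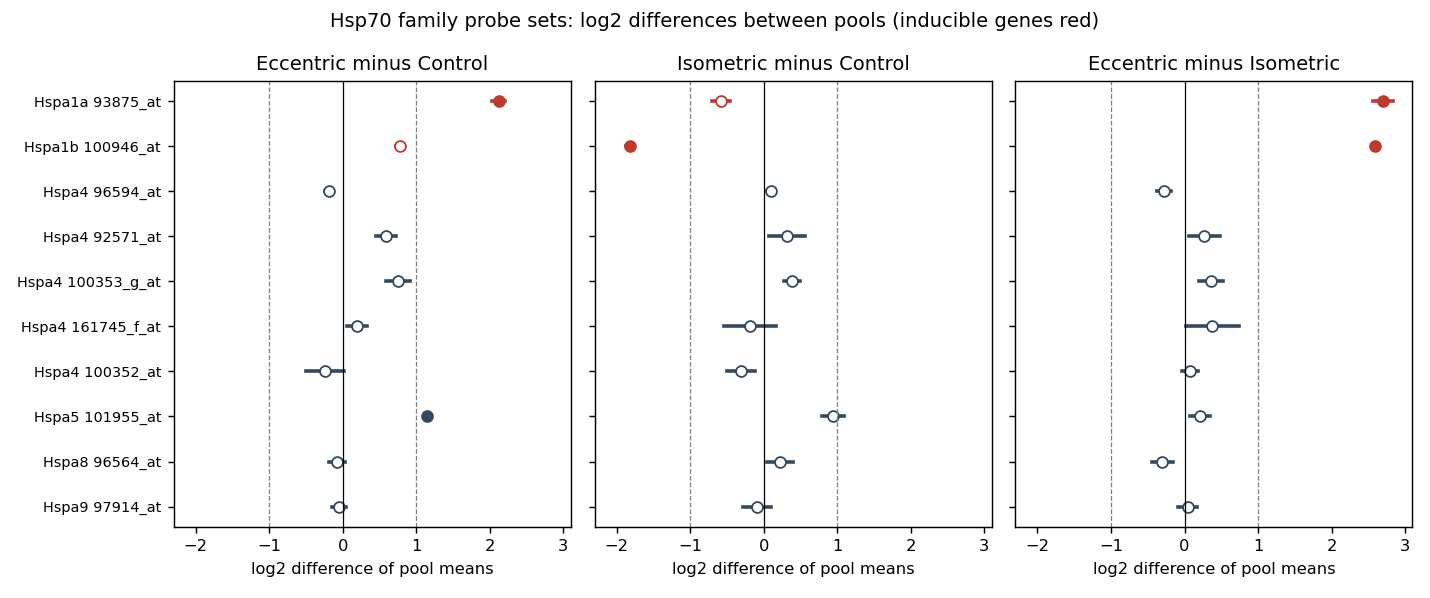
Log2 difference of pool means (horizontal axis) for the 10 family probe sets in the 3 comparisons, with bars for the range over the 4 array pairings. Filled points passed the 2-fold rule, drawn as dashed lines, and the inducible genes are red. The inducible genes lie to the right in both panels that have the eccentric pool on top and to the left in the isometric minus control panel.

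Set against the control pool, the inducible genes did not differ by the same amount. In the eccentric pool the log2 difference of Hspa1a was larger than that of Hspa1b by 1.35 (1.31 to 1.39 over array pairings), and in the isometric pool by 1.24 (1.11 to 1.37). Between the eccentric and isometric pools the gap was 0.11 (-0.03 to 0.24), a range that includes 0. Both values against the control pool use the same control arrays.

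The mean log2 difference of the inducible genes, minus that of the 4 constitutive genes by their brightest probe sets, was 1.24 for the eccentric against the control pool (1.18 to 1.30 over array pairings). It was -1.49 for the isometric against the control pool (-1.56 to -1.42) and 2.73 for the eccentric against the isometric pool (2.60 to 2.86). The inducible mean was 1.45, -1.20 and 2.65 in these 3 comparisons, and the constitutive mean was 0.21, 0.29 and -0.08. The constitutive mean against the control pool rested on Hspa5: with that gene left out, the contrast was 1.55 for the eccentric and -1.27 for the isometric pool. No test was made of this contrast, since each pool is 1 sample.

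**Figure D3:**
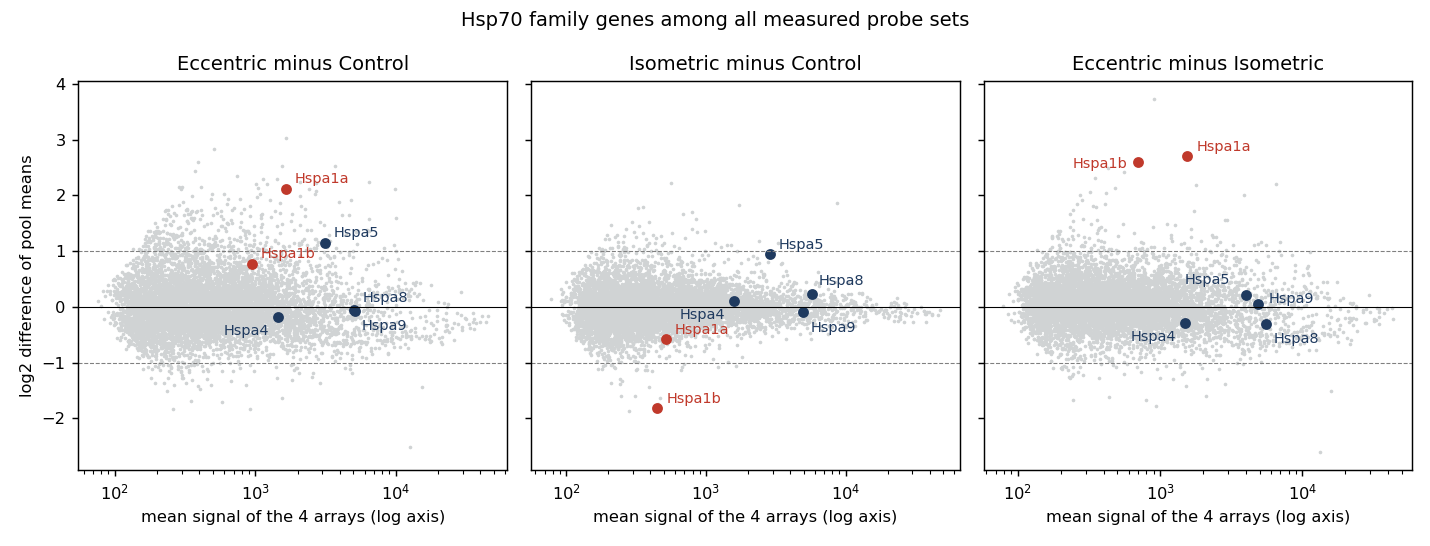
Log2 difference of pool means (vertical axis) against mean signal of the 4 arrays (horizontal log axis) for every measured probe set in grey, with the brightest probe set of each family gene marked. Dashed lines are 2-fold. Hspa1a and Hspa1b stand near the top of the eccentric minus isometric panel, at 2.70 and 2.59, while Hspa8 and Hspa9 stay close to 0.

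Hspa5 had 4309.1 and 4334.4 on the eccentric arrays, 3420.3 and 4104.5 on the isometric arrays, and 1967.4 and 1923.0 on the control arrays. Both exercised pools were above the control pool on every array, and the isometric arrays differed from each other by more than the eccentric ones. Means were 4322 ± 17.9 in the eccentric pool, 3762 ± 484 in the isometric pool and 1945 ± 31.4 in the control pool. Without isometric A, Hspa5 passed the rule for the isometric against the control pool at 1.08, and without isometric B it stayed below it at 0.81.

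Hspa8 had 4873.2 and 5104.5 on the eccentric arrays, 5703.8 and 6614.0 on the isometric arrays, and 5005.1 and 5547.4 on the control arrays. The isometric arrays were the brightest, and the eccentric and control arrays overlapped. The log2 difference was -0.08 for the eccentric against the control pool (-0.19 to 0.03), 0.22 for the isometric against the control pool (0.04 to 0.40) and -0.30 for the eccentric against the isometric pool (-0.44 to -0.16). The eccentric against control value of Hspa8 turned to 0.07 with quantile normalization.

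Hspa9 had 4876.9 and 5026.2 on the eccentric arrays, 4455.8 and 5191.6 on the isometric arrays, and 4864.0 and 5415.2 on the control arrays. All pools overlapped, and the log2 differences were -0.05 (-0.15 to 0.05) for the eccentric and -0.09 (-0.28 to 0.09) for the isometric pool against the control pool. Between the exercised pools the difference was 0.04 (-0.09 to 0.17). The sign of these values of Hspa9 changed with the scaling, to 0.10 for the eccentric against the control pool with quantile normalization and to -0.02 between the exercised pools with median scaling. No difference of 2-fold lay within any of these ranges.

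The probe sets of Hspa4 did not move as one. The brightest had 1307.1 and 1389.6 on the eccentric arrays, 1585.4 and 1698.0 on the isometric arrays, and 1547.2 and 1522.3 on the control arrays. It was lowest in the eccentric pool, with a log2 difference of -0.19 (-0.24 to -0.13) from the control pool and -0.28 (-0.38 to -0.19) from the isometric pool. By contrast the probe set next in brightness had 565.3 and 528.4 on the eccentric arrays, 406.0 and 505.2 on the isometric arrays, and 341.5 and 384.8 on the control arrays, and was highest in the eccentric pool. Its log2 difference was 0.59 (0.46 to 0.73) for the eccentric and 0.32 (0.08 to 0.56) for the isometric pool against the control pool.

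Another probe set, with a g suffix, had the largest differences of the gene, which against the control pool were 0.75 (0.58 to 0.92) for eccentric and 0.39 (0.28 to 0.50) for isometric muscle. The probe set with an f suffix, which Affymetrix gives where probes may match several sequences, differed by 0.19 (0.05 to 0.33) and -0.18 (-0.53 to 0.16), and the dimmest, which was below the floor on eccentric B and isometric B, by -0.24 (-0.49 to 0.02) and -0.31 (-0.49 to -0.12). Thus 3 of 5 Hspa4 probe sets were above 0 and 2 below in each comparison with the control pool, and none passed 2-fold. Opposite signs were common on this array, found in 37.9% of the 921 genes with several measured probe sets for the eccentric against the control pool. The range of 0.99 log2 units for Hspa4 there was larger than the median range of 0.32 over those genes.

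A shared sign in all 4 array pairings, called differences included, was frequent both in the family and on the array at large. With so few arrays per pool, such a shared sign can also arise from scatter between arrays alone. How often it did so was not tested, so the shares below are not shares of real differences between pools. Hspa4 alone holds 5 of the family probe sets. All 4 pairings had the same sign for 7 of 10 family probe sets in the eccentric against the control pool, beside 61.6% of all measured probe sets. The counts were 8 of 10 beside 38% for the isometric against the control pool, and 8 of 9 beside 52.6% for the eccentric against the isometric pool. The median log2 difference of the family probe sets was 0.39, 0.0014 and 0.27 in these comparisons, beside -0.03, -0.01 and 0.02 over all measured probe sets.

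Close relatives of the family were taken from a list of 9 genes, of which 6 were on the array. Only 3 were measured in the eccentric against the control pool, 2 in the isometric against the control pool and 3 in the eccentric against the isometric pool, and none of those was called. Among genes by brightest probe set, 5.16% were called higher and 1.06% lower in the eccentric against the control pool, 0.915% and 0.323% in the isometric against the control pool, and 1.73% and 0.676% in the eccentric against the isometric pool. These shares apply to the lists below too, and at such shares a short list would often hold no call. Hsph1, the Hsp105 chaperone that serves Hspa8 and Hspa1a as a nucleotide exchange factor, had 1918.8 and 1987.7 on the eccentric arrays, 1123.2 and 1187.2 on the isometric arrays, and 1109.7 and 1193.0 on the control arrays. It was above both other pools on every eccentric array, by 0.76 (0.69 to 0.84) over the control and 0.76 (0.69 to 0.82) over the isometric pool, while isometric and control arrays overlapped. Hspa1l, a relative expressed mainly in testis, starts 547 bases from Hspa1a on the other strand in GRCm38.p6. It had 823.9 and 754.3 on the eccentric arrays, 434.6 and 543.1 on the isometric arrays, and 618.6 and 804.0 on the control arrays, so that the isometric pool was lowest, at a log2 difference of -0.54 (-0.89 to -0.19) from the control pool. Between the eccentric and isometric pools Hspa1l differed by 0.70 (0.47 to 0.92). Hspa4l lay near the floor, with log2 differences of 0.35 for the eccentric against the control and 0.21 for the eccentric against the isometric pool. Hspa2, Hspa14 and Hyou1 were below the floor on all arrays.

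Partners of the Hsp70 cycle mostly stayed within 2-fold. Of 18 measured genes for J-domain co-chaperones 0 were higher and 1 was lower in the eccentric against the control pool, with a median of 0.09. A dimmer probe set of Dnajc3, a co-chaperone of Hspa5, was called higher at 1.598, where the brightest had 0.39. The lower gene was Dnajb5, with 72.7 and 57.7 on the eccentric arrays, both below the floor, 375.0 and 60.0 on the isometric arrays, and 310.3 and 278.3 on the control arrays, at least 2.43-fold lower in the eccentric pool. None of the J-domain genes was called in the other comparisons, with medians of -0.07 for the isometric against the control pool and 0.10 for the eccentric against the isometric pool. Dnajb1, the classical partner of Hspa1a, was dim, and its pools overlapped, with log2 differences from the control pool of -0.05 (-0.53 to 0.43) for the eccentric and -0.05 (-0.43 to 0.34) for the isometric pool. Of 10 measured nucleotide exchange factors and other partners none was called in any comparison, with medians of -0.07, 0.06 and -0.18. Bag3, which links Hsp70 to small heat shock proteins at the Z-disc, was read by a probe set with an f suffix, open to cross-hybridisation. It differed from the control pool by 0.60 (0.28 to 0.92) in eccentric muscle and by 0.46 (0.05 to 0.86) in isometric muscle. Of 3 heat shock factor genes and regulators on the array, only Hsbp1, a negative regulator of heat shock factor, was measured, at -0.22 and -0.32 against the control pool.

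Other cytosolic heat shock genes had more calls. Of 8 measured genes for Hsp90, small heat shock proteins and related factors 3 were higher and 0 lower in the eccentric against the control pool, with a median of 0.57. Over all measured genes 5.16% were higher and 1.06% lower there. Hsp90aa1, the inducible Hsp90, had 3262.5 and 3272.5 on the eccentric arrays, 1308.8 and 1367.9 on the isometric arrays, and 855.3 and 1023.4 on the control arrays. Its log2 difference was 1.80 (1.67 to 1.94) for the eccentric pool and 0.52 (0.35 to 0.68) for the isometric pool, each against the control pool. Where Hspa1a was lowest in the isometric pool, Hsp90aa1 was lowest in the control pool. The small chaperones Cryab and Hspb8 were also called, at 1.57 and 1.05, and the signal of Cryab is open to cross-hybridisation by its f suffix. In the isometric against the control pool 0 of 8 were called, with a median of 0.22, and in the eccentric against the isometric pool Hsp90aa1 (1.29) and Cryab (1.16) were, with a median of 0.36. The heat shock core marked for Hspa1a and Hspa1b was present upstream of 5 of 11 list genes with a promoter entry. They were Cdc37, Fkbp4, Hspb1, Hspb3 and Hspb6, and the 3 called genes were not among them. Since only 11 of the 15 genes of the list had an entry, a called gene may not have been searched, so this does not show that it lacks the core. The core was also present for 4 of 19 J-domain genes, 3 of 15 mitochondrial genes, 1 of 10 partners, 1 of 7 relatives and 0 of 18 endoplasmic reticulum genes.

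**Figure D4:**
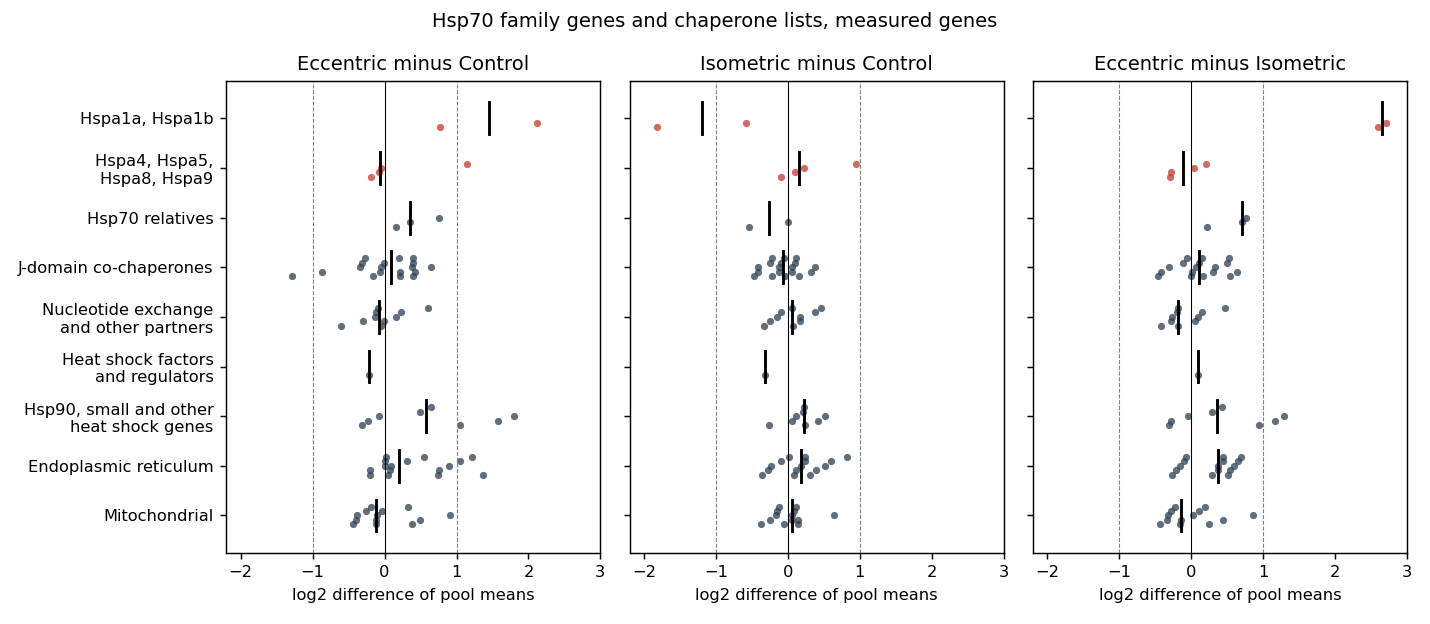
Log2 difference of pool means (horizontal axis) of the measured genes of the family (red) and of each list of partners and related chaperones, by brightest probe set. Points are genes, spread vertically for legibility, black ticks are medians and dashed lines are 2-fold. In the isometric minus control panel no gene of the lists passes 2-fold, while Hspa1b lies at -1.82.

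Around Hspa5, genes of the endoplasmic reticulum were examined as a list of 20 genes without Hspa5 itself. Of 16 measured genes 3 were higher and 0 lower in the eccentric against the control pool, beside 5.16% and 1.06% of all measured genes. Of the 16, 14 were above 0, and the median was 0.20. Hsp90b1, the Hsp90 of the reticulum, had 3724.8 and 3758.1 on the eccentric arrays, 2116.3 and 2526.5 on the isometric arrays, and 1580.1 and 1656.6 on the control arrays. It stood in the same order as Hspa5 without overlap, with log2 differences of 1.21 for the eccentric pool and 0.52 for the isometric pool, each against the control pool. Manf, a secreted protein induced by stress of the reticulum, differed by 1.36 and 0.82, and Pdia3, a disulfide isomerase, by 1.05 and 0.60, with overlap between isometric and control arrays for Pdia3.

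In the isometric against the control pool 0 of 15 measured genes of this list were called, with 11 above 0 and a median of 0.18. In the eccentric against the isometric pool 0 of 15 were called, with 10 above 0 and a median of 0.37. Genes for transcription factors of the unfolded protein response were not called. In the eccentric against the control pool Xbp1 differed by 0.75 (0.45 to 1.04), while Atf4 differed by 0.05, Atf6, which is also a stress sensor, by 0.07 (-0.42 to 0.56) and Ddit3 by 0.31 (-0.01 to 0.63). The stress element of Hspa5 was present upstream of 1 of 19 J-domain genes with a promoter entry, Dnajc3. It was also present upstream of 5 of the 18 endoplasmic reticulum genes with an entry, Calr, Canx, Creld2, Hsp90b1 and Pdia6. Of these, Calr was below the floor on all arrays, and the log2 differences in the eccentric against the control pool were 0.09 for Canx, 0.76 for Creld2 and 0.90 for Pdia6. Pdia6 has dimmer probe sets, and 2 of them were called in that comparison, at 1.33 and 1.66. The macrophage markers and the beta-actin ratio stood in the same order of pools as Hspa5 and Hsp90b1, and their part in these differences was not tested.

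**Figure D5:**
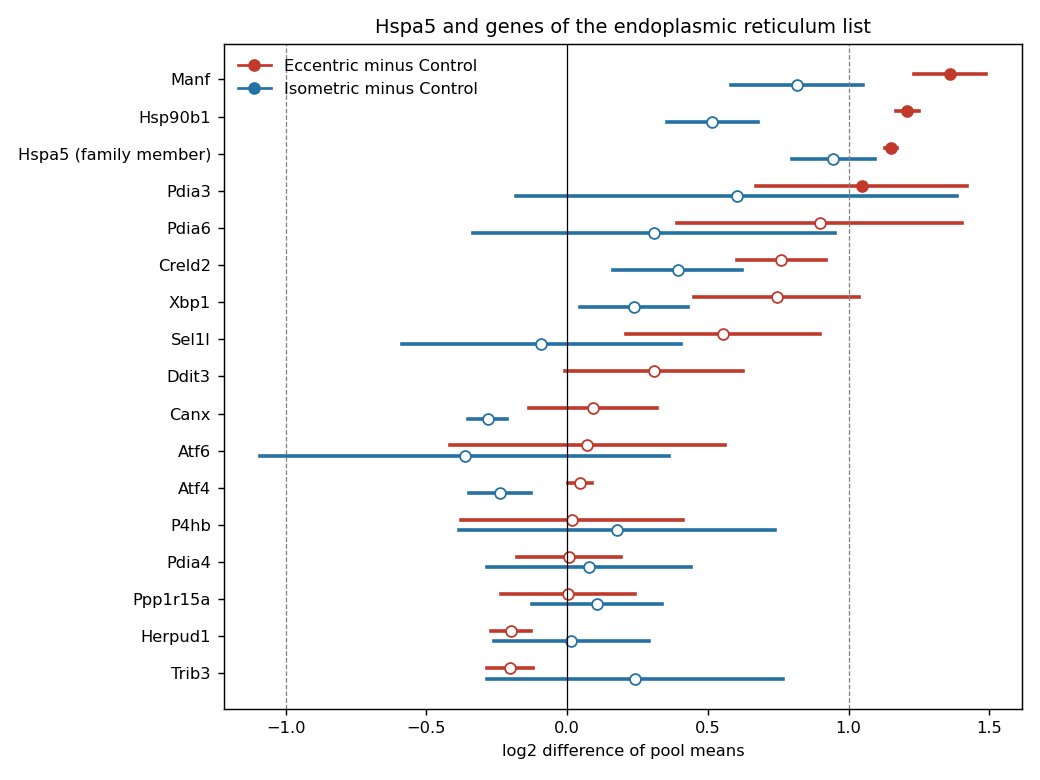
Log2 difference from the control pool (horizontal axis) of Hspa5 and the measured genes of the endoplasmic reticulum list, for the eccentric (red) and isometric (blue) pools, with bars for the range over 4 array pairings and filled points for calls. Both differences use the same control arrays. Hspa5 has the largest isometric difference, 0.95, and in the eccentric pool Manf and Hsp90b1 have larger ones.

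Around Hspa9, 13 measured genes for mitochondrial chaperones, proteases and import gave 0 calls in each comparison, with medians of -0.12 for the eccentric and 0.06 for the isometric against the control pool and -0.14 between the exercised pools. Hspe1, the small subunit of the mitochondrial chaperonin, differed most, at 0.91 in the eccentric pool, with 4660.0 and 4755.5 on the eccentric arrays against 2371.6 and 2638.6 on the control arrays. Hspd1, its large subunit, differed by 0.33. Grpel1, the nucleotide exchange factor of Hspa9, differed by -0.11.

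Genes most like the inducible pair were sought among 6652 other probe sets with 1 gene measured in the eccentric against the isometric comparison, by the root mean square difference of log2 signals over the 6 arrays after each was centred on its own mean. For Hspa1a they were Xirp1 (0.27), Adam8 (0.29), Ms4a6c (0.33), Cfp (0.33) and Ltb4r1 (0.34). Xirp1 encodes an actin-binding protein of striated muscle, Adam8 a metalloprotease of leukocytes, Cfp the complement factor properdin and Ltb4r1 a leukotriene receptor. The probe set of Ms4a6c has an f suffix, so its signal is open to cross-hybridisation. Xirp1, Ms4a6c and Cfp lay above the floor on all arrays, and in the isometric against the control pool differed by 0.03, -0.11 and 0.11, where Hspa1a had -0.58. Adam8 was below the floor on both control arrays, at 41.1 and 63.0, against 128.2 and 132.1 on the isometric arrays, and Ltb4r1 was below it on both isometric arrays. The likeness of Adam8 and Ltb4r1 to Hspa1a thus rests in part on values set to the floor. Hspa1b was in place 37, at 0.61. For Hspa1b they were Pspn (0.54), Cln8 (0.57), Traip (0.60), Saa3 (0.61) and Hspa1a (0.61), none as close as the nearest neighbours of Hspa1a. Pspn and Traip were lower in the isometric than in the control pool, at -1.63 and -1.45, but not higher in the eccentric pool. These likenesses rest on 3 pools and describe these arrays only.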

How the data were processed

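RNA pooled from 4 animals per group was read on 6 Affymetrix MGU74Av2 arrays, 2 per pool, per the labels. Values are linear intensities as deposited, 1 for each probe set on each array; how the authors corrected background and summarised probes is not given here by any label. Trimmed means, with 2% of values removed at each end, were 500.3 on every array, which is what scaling to one target gives. Such scaling hides a change shared by most genes.

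Each array was rescaled to the average trimmed mean by factors of at most 1.00002. Of 12488 probe sets, 66 were Affymetrix controls, 10833 had 1 gene, 396 several and 1193 none. Gene IDs of 10817 of the 10833 were found in a RefSeq table of GRCm38.p6, used for names only. Lists used the brightest probe set, by mean over 6 arrays, of each of 8251 genes. A gene below the floor on both arrays of a pool has only a bound there, written as at least N-fold.

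The named genes were all family probe sets, all list relatives, up to 4 called members per list and the 5 genes most like each inducible gene. Dnajb1, Bag3, Hspe1, Hspd1, Grpel1 and the uncalled endoplasmic reticulum genes were chosen after their values were seen. The family and lists were chosen with earlier results of these data known, so no list is independent evidence. limma on the 6 arrays, with Benjamini-Hochberg adjustment, served as an alternative that compares these pools by the spread between arrays. The size rule and limma were also run on simulated data, with planted differences well above the 2-fold limit in bright probe sets. That run does not bear on differences near the limit or on the spread between animals. Python 3.11.15, numpy 2.4.6, pandas 2.3.3, matplotlib 3.10.9, R 4.3.3 and limma 3.58.1 were used. With 2 arrays per pool, precision is limited by their number.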

Additional observations from a re-analysis of the deposited data

Results flagged for a closer look

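On every array the eccentric and isometric pools lay on opposite sides of the control pool for 3 family probe sets, beside 3.42% of 7636 probe sets (261). Of these 3, Hspa1a and Hspa1b may share signal. The same held for 2 of the genes most like Hspa1b, Saa3 and Cln8. The difference between the exercised pools was not tested, since each is 1 pool. Hspa1a differed by 2.70 on the log2 scale between the eccentric and isometric pools, with 2.12 and -0.58 against the control pool. Hspa1b differed by 2.59, with 0.77 and -1.82. The brightest probe set of Hspa4 differed by -0.28, with -0.19 and 0.10, and the other probe sets of Hspa4 did not share this pattern on every array. Saa3, an acute-phase serum amyloid gene, differed by 3.73, with 2.13 and -1.61, and was below the floor on isometric B. Cln8, a membrane protein gene of the endoplasmic reticulum, differed by 1.80, with 1.02 and -0.78. Saa3 and Cln8 were examined because of their likeness to Hspa1b, a choice that favours this pattern, so they are not set beside the share of all probe sets.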

How the results depend on the processing

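No family call changed direction under any alternative, but small uncalled differences did. With quantile normalization the eccentric against the control pool gave 0.07 for Hspa8, against -0.08, and 0.10 for Hspa9, against -0.05. Other sign changes, to values between -0.07 and 0.10, came from leaving out arrays or median scaling, in Hspa9 and the 2 dimmest Hspa4 probe sets. Leaving out control A and isometric B together, and reading Hspa4 by its next brightest probe set, were chosen after seeing the data. Of all measured probe sets 447 were called in the eccentric against the control pool, against 868 with the floor at the 20th percentile, 1543 with no floor and 1465 at 1.5-fold. For the isometric against the control pool the count was 97, against 418, 1017 and 491 under those settings, 60 where all 4 arrays had to lie above the floor and 206 without control A and isometric B. For the eccentric against the isometric pool it was 166, against 475, 1014, 925 and, without control A and isometric B, 261. The direction of these calls depended on the floor. For the eccentric against the control pool 364 were higher and 83 lower, against 713 higher and 830 lower with no floor. For the isometric against the control pool 67 were higher and 30 lower, against 313 higher and 704 lower with no floor. Leaving out 1 array at a time gave 480 to 626, 122 to 280 and 227 to 280.

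Family calls stayed at 2 for the eccentric against the isometric pool under every setting. For the eccentric against the control pool 2 became 5 at 1.5-fold, with Hspa1b and 2 Hspa4 probe sets added. For the isometric against the control pool 1 became 2 at 1.5-fold, by Hspa5, and leaving out 1 array gave 1 to 2, the higher count without isometric A. limma compares these pools, not contraction types. It called 625, 0 and 63 probe sets in the 3 comparisons at an adjusted p of 0.05 with no replicate block, of them 4, 0 and 2 of the family. With the array letter as replicate block it called 302, 0 and 9, of them 2, 0 and 2. Hspa1b in the isometric against the control pool, at -1.82 in each, had limma adjusted p-values of 0.0737 without the block and 0.205 with it. Beside these 0 counts, 770 probe sets and 4 of the family had an unadjusted p under 0.05 without the block, and 681 and 3 with it. The labels do not say that a letter marks a shared batch.

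The inducible minus constitutive contrast was 1.24 for the eccentric against the control pool, 1.12 with quantile normalization, 1.55 without Hspa5 and 1.04 with the other Hspa4 probe set. For the isometric against the control pool it was -1.49, and -1.27 without Hspa5. For the eccentric against the isometric pool it was 2.73, with 2.62, 2.83 and 2.59 under those 3 settings. Leaving out 1 array gave 1.18 to 1.30, -1.56 to -1.42 and 2.66 to 2.80. Of the values of single family probe sets 283 moved by less than the spread between arrays and 17 by more. Taking every probe set of a gene in place of its brightest moved 3 of 21 list counts, by probe sets of Pdia6 and Dnajc3. Where a setting moved a value, the cause was not tested. One pool per group leaves the spread between animals unmeasured, and signals below the floor give only bounds.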
